A study of Kluyveromyces marxianus and Kluyveromyces lactis with 30 samples.

Results

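The genes described here encode 3 enzymes of glucose breakdown in the yeast Kluyveromyces lactis: RAG5 (KLLA0D11352g), the hexokinase, RAG2 (KLLA0E23519g), the phosphoglucose isomerase, and PGK1 (KLLA0A11011g), the phosphoglycerate kinase. They were chosen by gene ID from a list of 4, and an ID was kept if the length of its exons lay within 5% of the length expected for the named gene. All 3 matched exactly, at 1458, 1668 and 1251 bases. The fourth ID, KLLA0E16357g for the pyruvate decarboxylase PDC1, was not analysed here, so the step from pyruvate to fermentation is not covered. The 3 genes are part of 5320 K. lactis genes counted in every library of the species.

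K. lactis is a yeast known for growth on lactose, and its growth on sugars rests largely on respiration when oxygen is present. Hexokinase adds the first phosphate to glucose, phosphoglucose isomerase turns glucose 6-phosphate into fructose 6-phosphate, and phosphoglycerate kinase makes ATP further down the same pathway. The RAG genes are named for mutants that fail to grow on glucose when respiration is blocked. In such mutants of RAG2, glucose can still be used through the pentose phosphate pathway when respiration is active.

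The study sequenced poly(A)-captured RNA from K. lactis strain yLB72 and from a second species, K. marxianus, which is not used here. Overnight cultures in the rich medium YPD were diluted into 50 mL at an optical density of 0.05 and harvested once they reached 0.4 to 0.85. The 5 conditions were the unstressed control at 28C, heat at 39C, the DNA alkylating agent methyl methanesulfonate (MMS), ethanol and caffeine, each with 3 biological replicates. The labels give no dose for MMS, ethanol or caffeine, no length of treatment and no temperature for those cultures. Gene counts per library summed to between 16896112 and 94410956. They give relative levels, so a change in a gene's RNA per cell and a change in the rest of the RNA cannot be told apart. The ethanol libraries were counted with another program and on exon features, where the other 12 libraries were counted on coding parts. For ethanol, the treatment and the counting method therefore cannot be told apart.

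Each of the 3 genes had 1 exon in the ethanol files and 1 coding part in the rest, and none overlapped another annotated gene. RAG5 lay on chromosome 4 from 973371 to 974828, RAG2 on chromosome 5 from 2093243 to 2094910 and PGK1 on chromosome 1 from 953797 to 955047, all on the plus strand of the annotation that the ethanol files carry. The smallest gap to a neighbouring gene was 230 bases, beside PGK1. Even the lowest count, 7469 reads for RAG5 in MMS replicate 3, has an exact 95% Poisson interval of 7301 to 7640. For RAG5 in MMS, counting error was therefore small beside the spread between replicates.

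RAG5, the gene for the sugar-phosphorylating step, fell in heat and in MMS and gave no call in ethanol or caffeine under the TMM scaling used throughout. In the controls its level was 1983, 2634 and 2141 CPM (the count relative to the library total, with totals scaled by the TMM method that corrects for library composition) in replicates 1, 2 and 3. It was 1032, 1119 and 1190 CPM in heat and 331, 382 and 292 CPM in MMS. All 6 of these libraries lay below all 3 controls, and the 3 MMS libraries lay lowest. Such a separation below the controls was found for 42.8% of tested genes in heat and 36.9% in MMS.

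In ethanol RAG5 stood at 3855, 1689 and 2494 CPM, and in caffeine at 2007, 1725 and 1666 CPM. Both groups overlapped the controls, and ethanol replicate 1 was the highest of all 15 libraries. RAG5 fell 2.02-fold in heat (log2 change -1.02 ± 0.24, standard error; edgeR quasi-likelihood test, adjusted p = 0.00169). It fell 6.72-fold in MMS (log2 change -2.75 ± 0.25, edgeR adjusted p = 4.16e-07).

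In ethanol the log2 difference from control was 0.25, with a 95% interval from -0.26 to 0.76 (edgeR adjusted p = 0.362). It was -0.11 without ethanol replicate 1. In caffeine the log2 difference was -0.32, with an interval from -0.83 to 0.18 (edgeR adjusted p = 0.25). In a fit of the 6 caffeine and control libraries alone the same fall passed (log2 change -0.31, edgeR adjusted p = 0.0468). With raw library totals in place of TMM scaling, RAG5 was called higher in ethanol (log2 change 0.70, edgeR adjusted p = 0.00603) and turned to 0.17 in caffeine (edgeR adjusted p = 0.477). The median of all tested genes then stood at 0.49 in both stresses.

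RAG2, the gene for the isomerase, was lower in every stress. Control replicates 1, 2 and 3 held 8321, 7302 and 7065 CPM. Heat gave 1986, 2036 and 2371 CPM, MMS 1406, 1343 and 1463 CPM, ethanol 3499, 2581 and 2999 CPM, and caffeine 1948, 1949 and 1916 CPM. All 12 stressed libraries lay below all 3 controls, and the highest of them was ethanol replicate 1. Of all tested genes, 33.2% were separated below the controls in ethanol and 38.0% in caffeine.

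The fall of RAG2 was 3.55-fold in heat (log2 change -1.83 ± 0.15, edgeR adjusted p = 1.62e-07) and 5.39-fold in MMS (-2.43 ± 0.15, edgeR adjusted p = 1.26e-08). It was 2.50-fold in ethanol (-1.32 ± 0.15, edgeR adjusted p = 4.48e-06) and 3.90-fold in caffeine (-1.96 ± 0.15, edgeR adjusted p = 9.26e-08). The caffeine libraries were nearly alike, with a coefficient of variation of 0.954% against 8.83% among the controls.

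PGK1, whose enzyme forms ATP in the lower part of glycolysis, was also lower in every stress. Its control replicates held 34652, 30893 and 27036 CPM. Heat gave 6827, 7405 and 8922 CPM, MMS 3585, 3670 and 4291 CPM, ethanol 19915, 11021 and 14051 CPM, and caffeine 6203, 6133 and 5989 CPM. All 12 stressed libraries again lay below all 3 controls, and ethanol was the stress with the highest values and the widest spread.

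PGK1 fell 4.00-fold in heat (log2 change -2.00 ± 0.22, edgeR adjusted p = 2.30e-06) and 8.02-fold in MMS (-3.00 ± 0.23, edgeR adjusted p = 7.28e-08). It was 2.06-fold lower in ethanol (-1.04 ± 0.22, edgeR adjusted p = 0.000788) and 5.05-fold lower in caffeine (-2.34 ± 0.22, edgeR adjusted p = 7.50e-07). The MMS fall was the largest of any of the 3 genes in any of the 4 stresses. MMS replicate 3 held 3.01% of ambiguous reads against 1.75% and 1.69% in the other MMS libraries. The heat libraries held more, 3.24% to 3.67%, against 1.90% to 2.23% in the controls. Without MMS replicate 3 the log2 changes in MMS were -2.66 for RAG5, -2.46 for RAG2 and -3.09 for PGK1, and all 3 kept their calls.

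**Figure D1:**
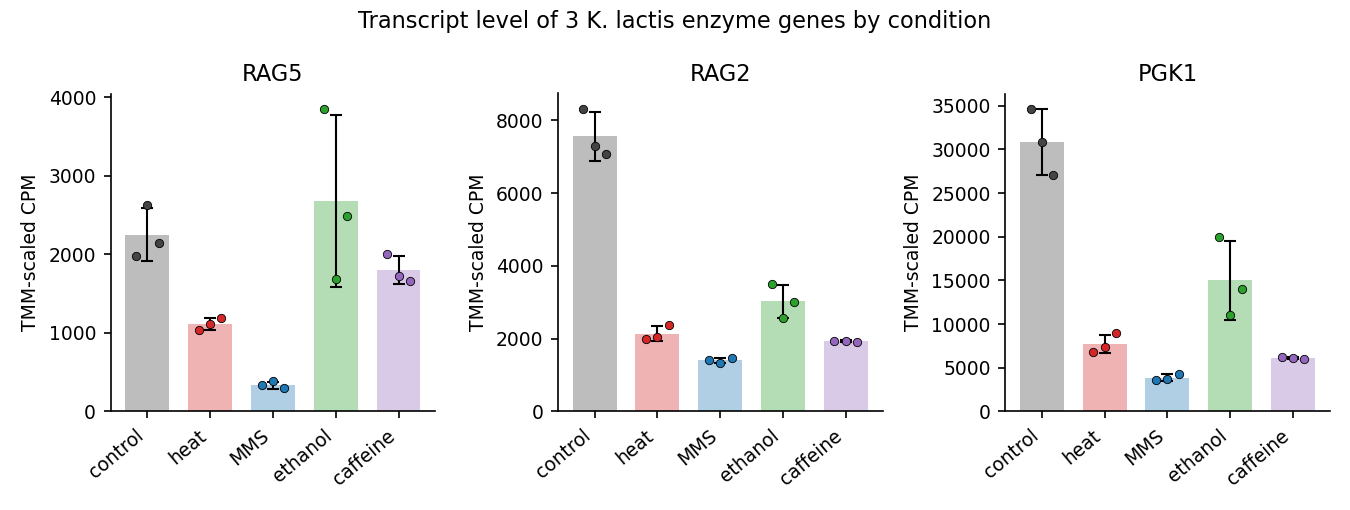
TMM-scaled CPM of RAG5, RAG2 and PGK1 in the control, heat, MMS, ethanol and caffeine cultures. Points are the 3 libraries of a condition in the order of their replicate numbers, bars their mean and error bars 1 SD. RAG2 and PGK1 lie below the controls in all 12 stressed libraries, while RAG5 overlaps the controls in ethanol and caffeine.

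Lower calls were common in these comparisons, and the counts of the 3 genes are to be read against that. In heat all 3 genes were called lower, where 38.7% of the 5124 genes tested were, and in MMS all 3 were, where 35.9% of tested genes were. In ethanol 2 of 3 were called lower against 32.3% of tested genes, and in caffeine 2 of 3 against 31.2%. With TMM scaling none of the 3 was called higher in any stress, where 32.3%, 35.7%, 33.1% and 31.5% of tested genes were in heat, MMS, ethanol and caffeine; with raw library totals RAG5 was called higher in ethanol. The median log2 change of the 3 genes was -1.83 for heat, -2.75 for MMS, -1.04 for ethanol and -1.96 for caffeine. Over all tested genes the median lay between -0.049 (heat) and 0.0064 (caffeine).

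The falls were also placed among those of all tested genes by their size. No comparison with genes of like abundance was made. In MMS 1.11% of tested genes had a lower log2 change than PGK1, 1.56% a lower one than RAG5 and 2.26% a lower one than RAG2. In caffeine the shares were 1.03% for PGK1 and 1.95% for RAG2, against 31.0% for RAG5. In ethanol they were 10.5% for PGK1 and 6.58% for RAG2, and RAG5 stood above 65.8% of tested genes. In heat 3.01% of tested genes lay below PGK1, 3.77% below RAG2 and 13.3% below RAG5. These 4 comparisons share the same 3 controls.

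**Figure D2:**
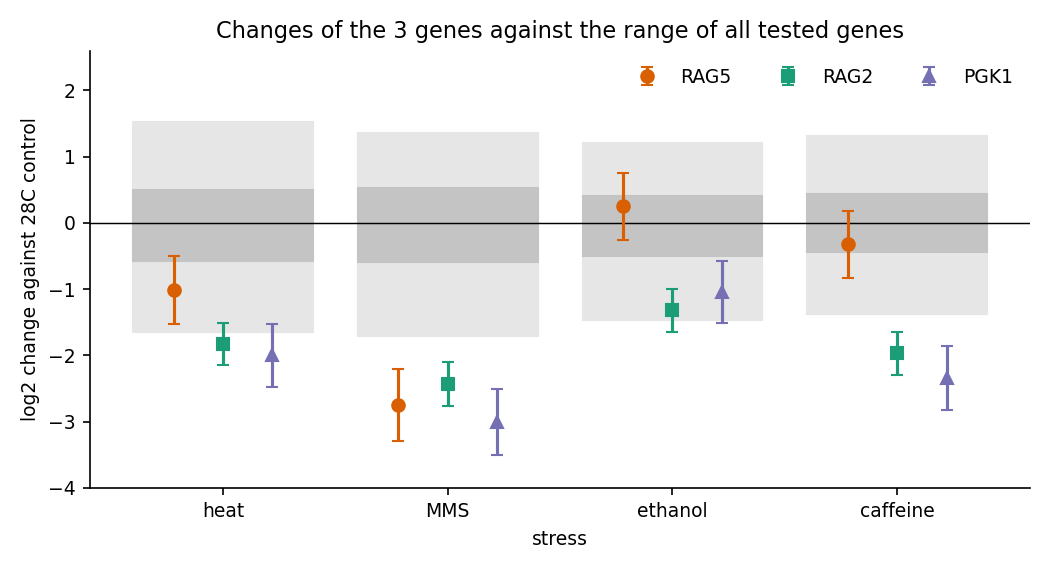
Log2 change of RAG5, RAG2 and PGK1 in each stress against the 28C control, with 95% intervals from the edgeR fit. The light grey box spans the 5th to 95th percentile of all 5124 tested genes and the dark box the 25th to 75th. In MMS all 3 genes lie below the light box, in caffeine only RAG2 and PGK1 do, and in ethanol none does.

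Placed in order of mean level, the conditions ran in another order in RAG5 than in RAG2 and PGK1. The pairs that swapped were ethanol with control and caffeine with heat, and neither pair passed the test in opposite directions. RAG5 was highest in ethanol, at a mean of 2679 ± 1095 CPM (SD, n = 3), then in control at 2253 ± 340, caffeine at 1799 ± 182, heat at 1114 ± 78.9 and MMS at 335 ± 45.1 CPM. Ethanol and control did not pass the test against each other, nor did control and caffeine, whose order turned with raw library totals (means of 1677 and 1881 CPM). Caffeine exceeded heat by a log2 difference of 0.69 (edgeR adjusted p = 0.0175), a call lost without caffeine replicate 1 (edgeR adjusted p = 0.0614) or heat replicate 1 (0.0573). It passed in a fit of the 6 heat and caffeine libraries alone (edgeR adjusted p = 1.2e-05). Heat exceeded MMS by 1.73 (edgeR adjusted p = 3.17e-05).

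RAG2 and PGK1 shared one order, control, ethanol, heat, caffeine, MMS, except that with raw library totals RAG2 in heat turned to below caffeine (log2 difference -0.035). RAG2 averaged 7563 ± 668, 3026 ± 460, 2131 ± 209, 1938 ± 18.5 and 1404 ± 60 CPM in that order (SD, n = 3). PGK1 averaged 30860 ± 3808, 14996 ± 4521, 7718 ± 1082, 6108 ± 109 and 3849 ± 385 CPM. Heat and caffeine were the neighbours that the test did not separate in either gene. Their log2 difference was 0.14 in RAG2, with an interval from -0.18 to 0.45 (edgeR adjusted p = 0.405), and 0.34 in PGK1, with an interval from -0.12 to 0.80 (edgeR adjusted p = 0.167). The latter passed in a fit of the 6 heat and caffeine libraries alone (edgeR adjusted p = 0.00618).

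The other steps of that order passed. Ethanol exceeded heat by a log2 difference of 0.51 in RAG2 (edgeR adjusted p = 0.00591) and 0.96 in PGK1 (0.000996). Caffeine exceeded MMS by 0.46 in RAG2 (edgeR adjusted p = 0.0124) and 0.67 in PGK1 (0.0139). With raw library totals both of these steps lost their call, at 0.32 for RAG2 and 0.0617 for PGK1 (edgeR adjusted p). The RAG2 step from ethanol to heat was lost in a fit of the 6 libraries alone (edgeR adjusted p = 0.082), and the PGK1 step from caffeine to MMS without MMS replicate 1 (0.0527).

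Between stresses the genes were tested in 6 pairs, and 16 of the 18 tests passed. MMS against heat lowered all 3 genes, where 34.4% of tested genes were higher in heat. All 3 were lower in MMS than in ethanol, where 34.7% of tested genes were lower in MMS. All 3 were also lower in MMS than in caffeine, where 32.2% were. With raw library totals RAG2 lost its call against heat (edgeR adjusted p = 0.458), and RAG2 and PGK1 theirs against caffeine. The largest of the MMS falls was RAG5 in MMS against ethanol, 7.99-fold lower (log2 difference -3.00 ± 0.26, edgeR adjusted p = 2.59e-07). That log2 difference was -2.64 without ethanol replicate 1. RAG5 was 5.37-fold lower in MMS than in caffeine (log2 difference -2.42 ± 0.25, edgeR adjusted p = 1.68e-06), where RAG2 was 1.38-fold and PGK1 1.59-fold lower.

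Heat was below ethanol for all 3 genes, where 42.9% of tested genes were, and RAG5 showed the largest of these falls, 2.41-fold (edgeR adjusted p = 0.000248). The log2 difference of RAG5 there went from -1.27 to -0.91 without ethanol replicate 1. Heat against caffeine lowered RAG5 alone, where 37.7% of tested genes were lower. Ethanol was above caffeine for all 3 genes, where 37.1% of tested genes were. PGK1 was 2.45-fold higher there (edgeR adjusted p = 0.000105) and RAG2 1.56-fold (edgeR adjusted p = 0.0013). RAG5 was 1.49-fold higher (edgeR adjusted p = 0.0425), a call lost in 12 of the 15 fits that each left out 1 library. It was kept without control replicate 1, control replicate 2 or ethanol replicate 2. Without ethanol replicate 1 the log2 difference of 0.57 became 0.22 (edgeR adjusted p = 0.304).

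The balance among the 3 steps was measured as the ratio of 2 genes' counts per kilobase within each library, which no scaling between libraries can change. In the controls RAG5 stood at 0.273, 0.413 and 0.347 of the RAG2 level in replicates 1, 2 and 3. It stood at 0.595, 0.629 and 0.574 in heat and at 0.269, 0.325 and 0.229 in MMS. In ethanol it stood at 1.26, 0.749 and 0.952, and in caffeine at 1.18, 1.01 and 0.994. All heat, ethanol and caffeine libraries lay above all controls, and hexokinase and isomerase transcripts were near each other per kilobase in ethanol and caffeine. How often other pairs of genes separate in this way was not measured, for this ratio or for the ratios to PGK1 below.

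The RAG5 to RAG2 ratio was 3.12-fold higher in caffeine, 2.85-fold in ethanol and 1.77-fold in heat than in the controls. For each the 2-sided exact permutation p was 0.1, the smallest that 3 libraries against 3 can give, and 0.12 after Benjamini-Hochberg adjustment over the 12 ratio tests. In MMS the ratio was 1.25-fold lower and overlapped the controls (exact permutation p = 0.2, adjusted 0.218).

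Relative to PGK1, RAG5 stood at a geometric mean of 0.0625 in the controls against 0.252 in caffeine, 0.149 in ethanol and 0.124 in heat. Every library of these 3 stresses again lay above every control (exact permutation p = 0.1, adjusted 0.12 each). The MMS mean of 0.0745 overlapped the controls (exact permutation p = 0.4, adjusted 0.4).

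RAG2 and PGK1 were compared in the same way. The RAG2 to PGK1 ratio was 0.184 in the controls, 0.155 in ethanol, 0.208 in heat, 0.238 in caffeine and 0.274 in MMS. The heat, MMS and caffeine libraries lay above all controls and the ethanol libraries below them (exact permutation p = 0.1, adjusted 0.12 each). The geometric means differed from that of the controls by at most 1.49-fold. Some margins were thin, with 0.199 in heat replicate 3 against 0.196 in control replicate 3. Ethanol replicate 2 stood at 0.176 against 0.177 in control replicate 2. The log2 ratio differed from the controls by 0.57 in MMS and by -0.25 in ethanol, the latter -0.14 without ethanol replicate 1.

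**Figure D3:**
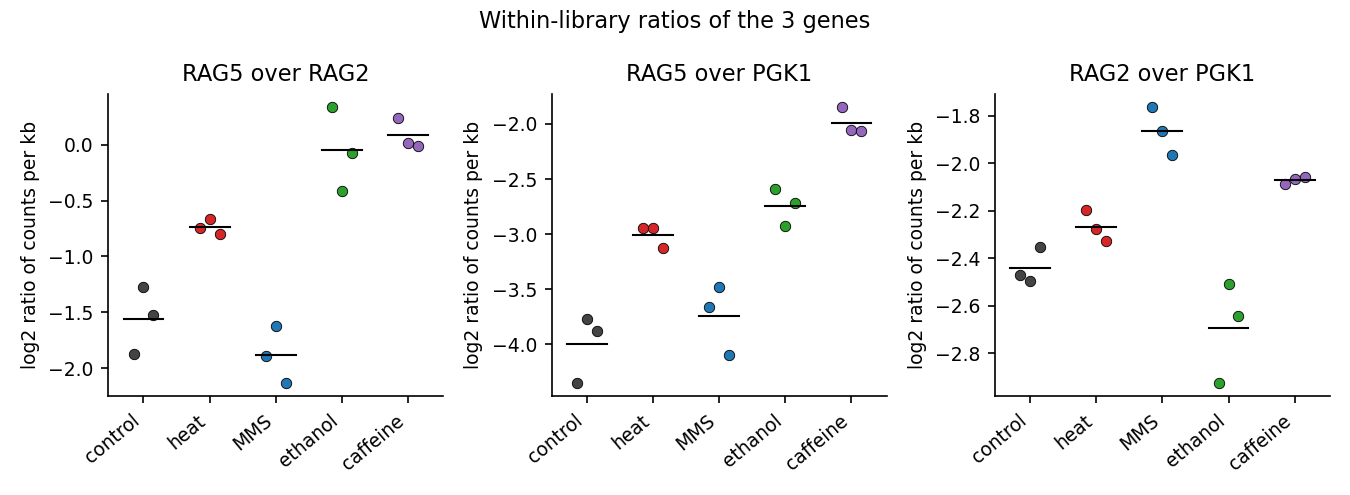
Log2 ratio of counts per kilobase between 2 genes within each library, for the 3 pairs of genes. Points are libraries in the order of their replicate numbers, lines the mean of each condition, and each panel has its own axis. RAG5 stands higher relative to both other genes in heat, ethanol and caffeine than in the controls and overlaps them in MMS. RAG2 relative to PGK1 spans a narrower range.

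All 3 genes were among the more abundant transcripts in every condition. On the scale of CPM per kilobase, PGK1 averaged 24668 ± 3044 in the controls (SD, n = 3) and ranked 10 of 5124 tested genes. RAG2 averaged 4534 ± 400 and ranked 29, and RAG5 averaged 1545 ± 233 and ranked 139. PGK1 stayed between rank 9 in ethanol and rank 16 in caffeine despite its falls. RAG2 moved to rank 166 in heat and 130 in MMS, and to 50 in ethanol and 157 in caffeine. RAG5 moved to 237 in heat and 560 in MMS, and stood at 49 in ethanol and 146 in caffeine. Its ethanol rank rests on a mean of 1838 ± 751 CPM per kilobase (SD, n = 3), and its ethanol level was not called different from control.

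Together the 3 genes took 3.03% ± 0.291 of all gene counts in the controls (SD, n = 3; raw totals). They took 2.13% ± 0.406 in ethanol, 1.03% ± 0.0332 in caffeine, 1.02% ± 0.104 in heat and 0.738% ± 0.0186 in MMS. PGK1 made up most of this share in each condition, with 2.30% ± 0.258 in the controls. In caffeine RAG5 and RAG2 took 0.188% ± 0.0197 and 0.203% ± 0.00253, against 0.168% ± 0.0238 and 0.563% ± 0.0462 in the controls.

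**Figure D4:**
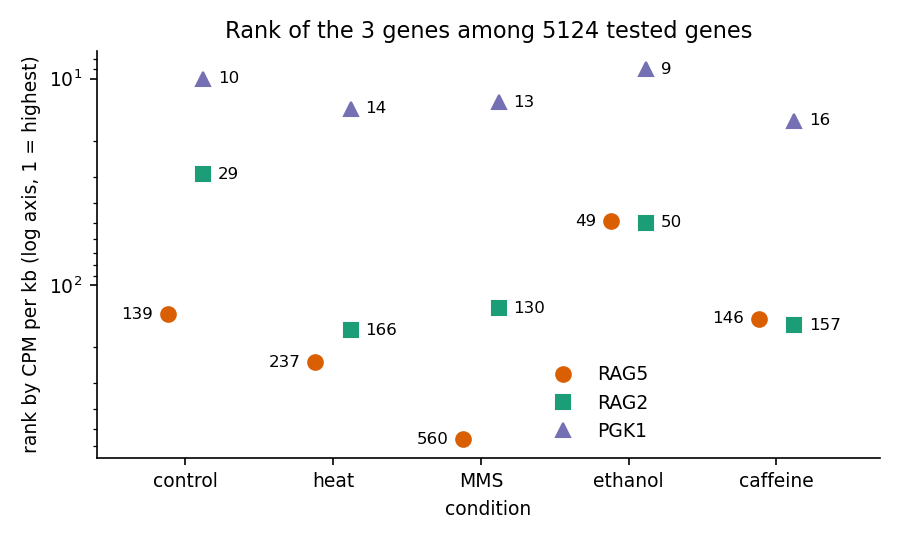
Rank of RAG5, RAG2 and PGK1 by mean CPM per kilobase among the 5124 tested genes in each condition, on a log axis with the most abundant gene at the top. PGK1 stays between ranks 9 and 16, and RAG5 drops to rank 560 in MMS but stands beside RAG2 in ethanol and caffeine.

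Likeness of profile was measured over the 12 libraries without ethanol, as the root mean square difference of log2 CPM after each gene was centred on its own mean. RAG2 and PGK1 differed by 0.22, which made PGK1 the gene ranked 10 of 4982 by nearness to RAG2 and RAG2 the gene ranked 7 by nearness to PGK1. RAG5 differed from RAG2 by 0.78 and from PGK1 by 0.80, ranks 399 and 467 among the genes compared with RAG5. The median gene lay 1.15 from RAG5, 1.02 from RAG2 and 1.20 from PGK1.

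The nearest gene differed for each of the 3, and the files pair none of these IDs with a name. PGK1 was nearest to KLLA0E07569g, at 0.16, itself at 37734 ± 1011 CPM in the controls and 5900 ± 293 in MMS (SD, n = 3). RAG2 was nearest to KLLA0B04455g, at 0.14, a gene of 53.7 ± 4.58 CPM in the controls and 12.4 ± 1.63 in MMS. RAG5 was nearest to KLLA0E23211g, at 0.15, which held 304 ± 24 CPM in the controls, 292 ± 23.6 in caffeine and 49.8 ± 3.1 in MMS. In ethanol, which the measure did not use, KLLA0E23211g stood at 122 ± 22.7 CPM, below its controls, while RAG5 gave no call there.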

How the data were processed

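Poly(A)-captured RNA of 15 K. lactis libraries was analysed. The deposited values are raw counts, not normalized by the authors. TopHat and HTSeq made them, per the submitters' processing notes, and the ethanol files come from featureCounts 1.6.3, per the file headers, which also hold the exon lengths in bases that were used for values per kilobase. Genome build and strand use are not given in the sources used here. Counts of coding parts or exons were added up by gene, which gave 5320 genes. Reads on no feature, 4.68% to 8.04% of reads in the 12 HTSeq files, and ambiguous reads, 1.69% to 3.67%, stayed out.

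Groups and replicate numbers came from the titles. All 15 libraries were fitted in edgeR 4.0.16 (R 4.3.3) with the quasi-likelihood test, group as the only term, the filterByExpr filter (5124 genes left) and TMM scaling. The 2-sided p-values were adjusted over all tested genes by the Benjamini-Hochberg method, with calls under 0.05. Standard errors were derived from the F statistic. Ratios within libraries were compared by exact permutation tests. The fit was tested on counts simulated with few changed genes and a common spread. That test does not bear on scaling, or on unequal spread, in these data. Alternatives were RLE scaling, raw totals, DESeq2 1.42.0, no filter, fits of fewer libraries, a replicate block and the omission of each library in turn.

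The members and lists were chosen with earlier results of these data known. The named genes are the members and, for each, the nearest gene in profile that overlaps no other gene. A list of 34 further pathway genes was not used, since 0 of the 5320 IDs carries one of its names or is found in the reference table. TMM factors ran from 0.735 in a control to 1.39 in an MMS library.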

Additional observations from a re-analysis of the deposited data

How the results depend on the processing

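The 10 falls against control kept their direction and their call under every alternative run, but their size depended on the scaling. With raw library totals all 10 were smaller. The log2 changes of RAG5, RAG2 and PGK1 were then -0.70, -1.51 and -1.68 in heat and -1.91, -1.60 and -2.18 in MMS. Those of RAG2 and PGK1 were -0.84 and -0.58 in ethanol and -1.48 and -1.85 in caffeine. Over the leave-one-out fits the log2 change ran from -1.10 to -0.89 (RAG5), -1.91 to -1.75 (RAG2) and -2.12 to -1.91 (PGK1) in heat, from -2.83 to -2.62, -2.47 to -2.36 and -3.09 to -2.91 in MMS, from -0.11 to 0.46, -1.44 to -1.25 and -1.30 to -0.90 in ethanol, and from -0.41 to -0.20, -2.01 to -1.89 and -2.42 to -2.25 in caffeine. The RAG5 difference in ethanol turned to -0.11 without ethanol replicate 1. With only the 6 libraries compared, RAG5 in caffeine passed at a log2 change of -0.31. Raw library totals moved the median log2 change of all genes to 0.27 (heat), 0.83 (MMS), 0.49 (ethanol) and 0.49 (caffeine). Under them RAG5 was called higher in ethanol at 0.70 (0.21 above that median) and stood at 0.17 in caffeine (-0.33 against it), and RAG2 in heat against caffeine turned to -0.035. Genes called lower were then 1130 (heat), 526 (MMS), 694 (ethanol) and 623 (caffeine), and genes called higher 3682 (MMS), 3037 (ethanol) and 3023 (caffeine). Between stresses, RAG5 in ethanol against caffeine also lost its call with RLE scaling (edgeR adjusted p = 0.0595) and with only the 6 libraries compared (0.13). Raw totals ended the calls of RAG2 in heat against MMS and of RAG2 and PGK1 in MMS against caffeine (edgeR adjusted p = 0.458, 0.32 and 0.0617). The replicate numbers were not treated as pairs: 11 of 30 same-number correlations exceeded 0.1, and heat and caffeine were the one pair of conditions with all 3 above it (0.118, 0.277 and 0.210). As a hint from the data that libraries of the same number may be linked, 11 of 15 libraries correlated best with their own number. The permutation tests of the ratios were not rerun with pairs. With the replicate block RAG5 in ethanol against caffeine had an adjusted p of 0.059, 1641 genes were called higher in heat against 1653 without it, and no other member call changed. At these counts depth does not limit the members.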
